A study of Mus musculus with 12 samples.

Results

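The amino acid transporters examined here are the members of 7 families of solute carriers, Slc1a, Slc3a, Slc6a, Slc7a, Slc36a, Slc38a and Slc43a. Their genes were taken by symbol alone, and 50 of the 16670 genes in the expression table matched. GENCODE M21 annotates 61 protein-coding mouse genes with such symbols, and the other 11 are not analysed here. RNA was measured in fractions of the inguinal white fat pad, a subcutaneous depot, of female C57BL/6 mice labelled Kdm5c+/+ or Kdm5c+/-. Kdm5c is an X-linked gene for a demethylase of histone H3 lysine 4. Fat pads of 2 mice were combined for each sample, freed into cells with collagenase and spun, which gave a floating mature adipocyte fraction (MAT) and a pelleted stromal vascular fraction (SV). Each genotype and fraction had 3 pools, so 12 libraries fell into 4 groups: Kdm5c+/+ MAT, Kdm5c+/- MAT, Kdm5c+/+ SV and Kdm5c+/- SV. No drug, diet or transgene is named in the labels, and the sources used here give neither the ages nor the part of Kdm5c that was removed.

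Amino acids are charged or polar and cross membranes only through carriers, so the set of carriers that a cell makes decides which amino acids it takes up, exchanges or releases. Several Slc7a proteins are light chains that reach the plasma membrane only when bound to a heavy chain of the Slc3a family, whereas the Slc1a, Slc36a and Slc38a proteins work without one. Mature adipocytes are known for Slc7a10 (Asc-1), a carrier of small neutral amino acids such as serine, glycine and alanine that serves as a surface marker of white adipocytes. The family names also take in carriers of other molecules: 7 members carry GABA, taurine, creatine or monoamines, and Slc43a3 carries purine bases.

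The libraries held 21836878 to 29434125 reads. Levels are in CPM, the reads of a gene scaled to a library total of 1000000, and 3 reads, used as the floor of detection for counting error, were worth 0.102 to 0.137 CPM. Kdm5c RNA was 169.0 ± 18.4 CPM in Kdm5c+/- MAT and 177.7 ± 2.99 CPM in Kdm5c+/+ MAT (SD, n = 3), a ratio whose 95% interval was 0.810 to 1.11. In SV it was 186.5 ± 9.89 and 184.6 ± 4.09 CPM (SD, n = 3), with an interval of 0.895 to 1.14, so the RNA level over the whole gene did not check the genotype labels, and "Kdm5c+/-" below means libraries labelled so. The fractions carried the markers of their names. The summed level of 8 adipocyte genes (Adipoq, Plin1, Cidec, Lipe, Pparg, Lep, Retn and Fabp4) was 24553 to 30882 CPM in MAT and 4273 to 7317 CPM in SV. Most of the SV sum, of mean 5424 CPM, was Fabp4, with a mean of 4699 CPM in SV and 11268 CPM in MAT. Adipoq had means of 99.7 CPM in SV and 4331 CPM in MAT. The endothelial sum (6 genes) was 95.6 to 273.7 CPM in MAT and 5007 to 7000.0 CPM in SV, and the macrophage sum (5 genes) was 22.4 to 66.4 CPM in MAT and 1322 to 1866 CPM in SV. SV is a mixture of cell types, and in such bulk samples fewer cells of a type and less RNA per cell cannot be told apart.

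The fractions expressed different sets of carriers. The 50 members summed to 4653 to 5260.2 CPM in the 6 MAT libraries, with a median of 4993 CPM, and to 2386 to 2656 CPM in the 6 SV libraries, with a median of 2466 CPM. Slc1a5 alone made up 50.6% of the members' mean CPM in MAT and 9.13% in SV, so much of the difference between these sums was this gene. More members were expressed in SV: 38 to 41 reached 1 CPM there, against 27 to 29 in MAT. Genes of all kinds went the same way. The genotype comparisons below could test 39 members and 13792 of all genes in SV, against 29 and 11913 in MAT. Whether the members go beyond the other genes in this was not tested. Between the fractions 40 members could be tested, those at 1 CPM or more in at least 3 libraries. Members under 1 CPM in every library of one fraction, as Slc38a1 and Slc6a4 were in MAT, entered this test only through the other fraction. In limma's test on log2(CPM + 1), 12 were higher in MAT, 25 were higher in SV and 3 did not pass an adjusted p of 0.05. These shares of 30% and 62.5% were near the background, since 28.7% of all 14193 genes tested were higher in MAT and 59.1% were higher in SV. The split moves with scaling: it was 14 and 23 after median-of-ratios scaling (background 40.3% and 46.1%), 14 and 22 after quantile normalization (46.6% and 40.7%), 15 and 21 with edgeR (42.7% and 43.3%) and 15 and 22 with DESeq2 (40.6% and 46%). The members' differences were wider than those of other genes. Their median size was 2.04 on the log2 scale, against 0.89 over all genes, and the 6 libraries of one fraction did not overlap the 6 of the other for 34 of 40 members (85%, background 74.6%).

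**Figure D1:**
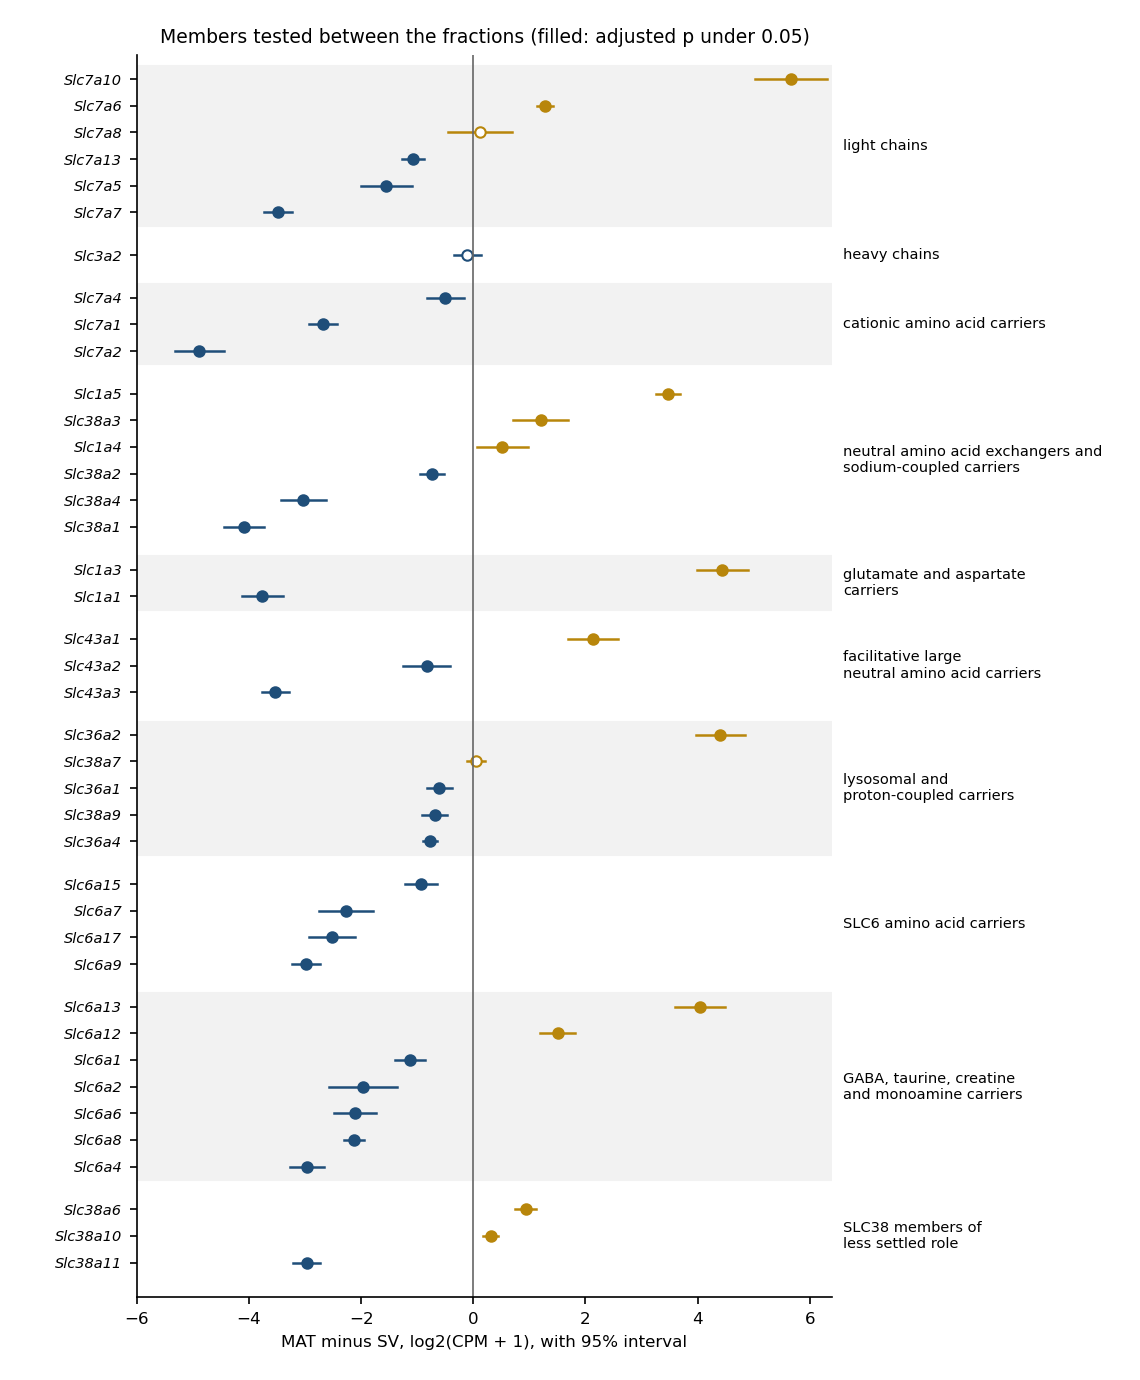
Difference between the fractions (MAT minus SV, log2(CPM + 1), limma, with its 95% interval) for each of the 40 members tested, ordered by role; gold lies to the MAT side, blue to the SV side, and open circles did not pass. Most role groups held members on both sides, from Slc7a10 at 5.66 to Slc7a2 at -4.88.

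Among the light chains, most of which exchange neutral or cationic amino acids, Slc7a10 had the largest difference on the log2(CPM + 1) scale of the members tested. It also had the largest ratio of mean CPM among those higher in MAT. Ratios were larger for some members of SV that are low in MAT, among them Slc7a2 and Slc38a1. Slc7a10 lies at chr7:35186385-35201114 of GRCm38 on the plus strand, 64.5 kb from Cebpa, the gene of an adipocyte transcription factor, and overlaps Lrp3 on the opposite strand. Its level in MAT was 391.6, 543.6 and 411.1 CPM in the Kdm5c+/- pools and 408.2, 411.7 and 367.9 CPM in the Kdm5c+/+ pools. In SV it was 11.0, 16.6 and 3.49 CPM and 9.66, 4.62 and 4.69 CPM. Every MAT library stood far above every SV library, and the means of 422.4 ± 61.7 and 8.34 ± 5.05 CPM (SD, n = 6) differed 50.6-fold. The log2 difference was 5.66 ± 0.29 (SE, limma, adjusted p = 3.81e-09).

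The other light chains formed a series from MAT to SV. Slc7a6 (y+LAT2), which exchanges cationic against neutral amino acids, was higher in MAT at 55.5 to 73.7 CPM, median 59.97, than in SV at 21.7 to 29.0 CPM, median 25.5 (1.28 ± 0.0645 SE on the log2 scale). Its close relative Slc7a7 (y+LAT1) was on the other side, with 0.579 to 1.45 CPM in MAT, median 1.09, and 20.0 to 23.1 CPM in SV, median 21.7, a 20.8-fold difference (-3.49 ± 0.12). Slc7a5 (LAT1), the leucine exchanger, was also higher in SV (4.14 CPM in MAT and 13.1 CPM in SV, medians; -1.55 ± 0.20). The y+LAT exchangers were thus divided between the fractions, and for Slc7a6, Slc7a7 and Slc7a5 the 6 MAT libraries did not overlap the 6 of SV. Slc7a13 (AGT1) was at or under 3 reads in every MAT library and at 0.763 to 1.48 CPM in SV, at least 10.2-fold higher. Slc7a8 (LAT2), an exchanger of neutral amino acids, did not pass with limma (0.12 ± 0.26, adjusted p = 0.677): its MAT levels ran from 22.3 to 96.7 CPM and enclosed all of its SV levels. Slc7a8 was called higher in MAT by edgeR (0.70, adjusted p = 0.028) and DESeq2 (0.62, adjusted p = 0.0238) and in the wild-type libraries alone (0.77, adjusted p = 0.0205), and lay to the SV side in the Kdm5c+/- libraries alone (-0.54, adjusted p = 0.248). The heavy chain Slc3a2 (CD98), which all of these light chains but Slc7a13 are known to bind, did not pass either (-0.11 ± 0.11, adjusted p = 0.38), with 129.5 to 247.7 CPM in MAT and 160.2 to 227.7 CPM in SV; its sign turned with the scaling of the libraries, being 0.28 with an adjusted p of 0.0312 under median-of-ratios scaling.

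Levels of different genes can be set side by side only per length, here as CPM per kb of the longest annotated coding transcript. On that scale the 7 listed light chains together were 2.7 to 6.51 times the level of Slc3a2 in the MAT libraries and 0.419 to 0.605 times in the SV libraries. Slc7a10 made up 82.5 to 92.9% of the light chain sum in MAT and 5.19 to 19.4% in SV. These ratios rest on the transcript length: Slc7a10 in MAT was 216.3 CPM per kb by the longest transcript and 671.5 by the median length of its 3 annotated coding transcripts, and Slc3a2 was 65.9 and 286.7. The lengths differed by more than 1.5 times for 22 of the 50 members, so that shares and ranks per kb hold for the longest transcript only.

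The neutral amino acid exchangers and sodium-coupled carriers held the most abundant member. Slc1a5 (ASCT2), an exchanger of glutamine and other neutral amino acids, ranked 26 of all 16670 genes by mean CPM in MAT. It was at 2254 to 2845 CPM there, median 2519.5, and at 171.8 to 280.03 CPM in SV, median 224.5, with no overlap and an 11.0-fold difference of means (3.47 ± 0.096, adjusted p = 1.53e-11). Per kb it took 48.5 to 57.1% of the summed level of the 50 members in the MAT libraries and 10.1 to 14.1% in the SV libraries. By the median transcript length its share of the mean levels was 33.0% in MAT, beside 24.2% for Slc7a10, and 3.94% in SV, where Slc6a6, with 32.9%, ranked above Slc43a3, with 26.2%. Slc38a1 (SNAT1), a sodium-coupled carrier of glutamine and alanine, had the opposite pattern, with 0.157 to 0.408 CPM in MAT, 36 reads in all 6 libraries, and 12.4 to 26.0 CPM in SV, a 90.9-fold difference of means (-4.09 ± 0.16). Slc38a4 (SNAT4) was likewise higher in SV, at 4.61 to 15.5 CPM, than in MAT, at 0.160 to 0.470 CPM (-3.03 ± 0.18). Slc38a2 (SNAT2), which is induced by amino acid shortage, was abundant in both fractions, and SV was 1.68 times as high (medians 229.8 and 372.5 CPM; -0.74 ± 0.096). Slc38a3 (SNAT3), a carrier of glutamine and histidine, was higher in MAT (1.2 ± 0.23, adjusted p = 0.000353) although the libraries overlapped, and Slc1a4 (ASCT1), an exchanger of alanine, serine and cysteine, passed narrowly (0.52 ± 0.21, adjusted p = 0.0345). The call of Slc1a4 was lost in the Kdm5c+/- libraries alone (0.07, adjusted p = 0.839) and when any 1 of 7 single libraries was left out, 3 of MAT and 4 of SV (adjusted p = 0.0587 to 0.0826).

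**Figure D2:**
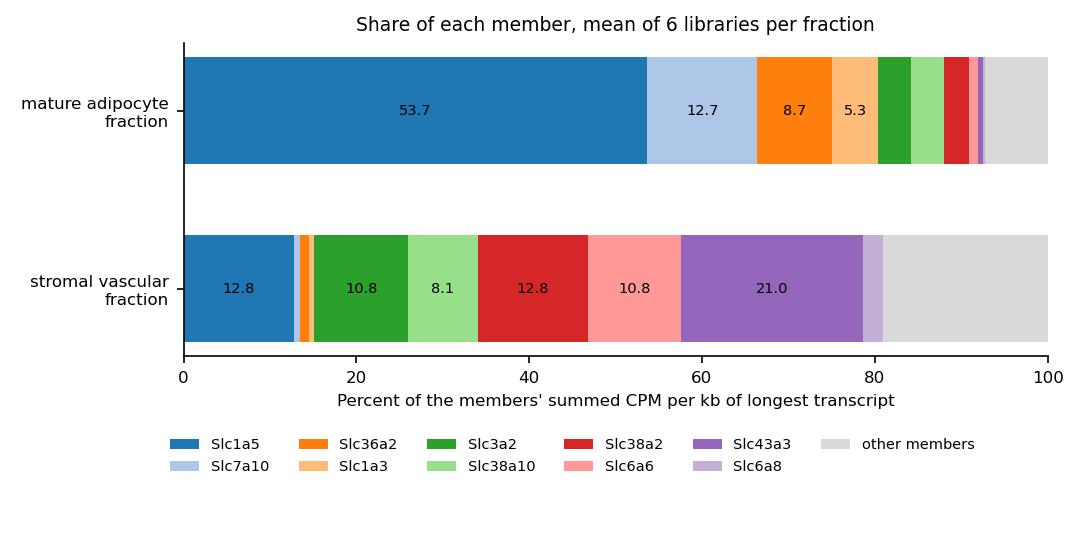
Share of each member in the members' summed level per kb of longest coding transcript (horizontal axis, percent), from the mean of 6 libraries in each fraction. Slc1a5 held 53.7% in MAT and 12.8% in SV, where Slc43a3, with 21.0%, was the largest; by the median transcript length Slc6a6 was the largest in SV.

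The glutamate carriers of the plasma membrane were divided between the fractions. Slc1a3 (GLAST) was at 251.4 to 660.1 CPM in MAT, median 296.9, and at 9.34 to 26.5 CPM in SV, median 13.5, a 22.8-fold difference (4.44 ± 0.21). Slc1a1 (EAAC1), which also takes up aspartate and cysteine, was at 0.360 to 2.34 CPM in MAT, median 1.40, and at 15.6 to 46.6 CPM in SV, median 31.3, a 22.9-fold difference the other way (-3.77 ± 0.17). Neither pair of groups overlapped. The glutamate carriers Slc1a2 (GLT1), Slc1a6 (EAAT4) and Slc1a7 (EAAT5) were at or under 3 reads in every MAT library and at most 0.763 CPM in SV, and were not tested.

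Cationic amino acid carriers bring arginine and lysine into cells. All 3 members of this group that were tested were called higher in SV with limma, where 59.1% of all genes tested were. The direction of Slc7a4 changed with the scaling. Slc7a2 (CAT2) was at 44.8 to 95.8 CPM in SV, median 59.5, and 0.72 to 2.36 CPM in MAT, median 1.08, a 52.2-fold difference (-4.88 ± 0.20). Slc7a1 (CAT1) was at 45.1 to 54.1 CPM in SV and 4.52 to 11.0 CPM in MAT (-2.68 ± 0.11). Both stood apart with no overlap, whereas Slc7a4, an orphan relative, lay at 0.464 to 1.69 CPM in MAT and 1.07 to 2.04 CPM in SV (-0.50 ± 0.15, adjusted p = 0.00864). The Slc7a4 difference was not called by edgeR or DESeq2. With limma it was lost under median-of-ratios scaling (adjusted p = 0.0955) and in the Kdm5c+/- libraries alone (adjusted p = 0.275). After quantile normalization limma called it to the MAT side (0.63, adjusted p = 0.000755). Slc7a4 overlaps P2rx6 on the opposite strand.

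The facilitative carriers of the Slc43a family, which move branched-chain and other large neutral amino acids without sodium, were split as well. Slc43a1 (LAT3) was at 35.5 to 149.7 CPM in MAT, median 61.8, and 12.9 to 24.0 CPM in SV, median 14.2 (2.13 ± 0.21). Slc43a3, the purine base carrier whose gene lies 72.99 kb from Slc43a1, was at 22.05 to 33.4 CPM in MAT, median 30.2, and 302.2 to 462.8 CPM in SV, median 338.5. The neighbours thus differed in opposite directions, Slc43a3 by -3.53 ± 0.11 or 11.9-fold. Slc43a2 (LAT4) was higher in SV by a smaller margin (-0.83 ± 0.19), which edgeR (adjusted p = 0.139) and DESeq2 (adjusted p = 0.054) did not call.

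Among the proton-coupled and lysosomal carriers, Slc36a2 (PAT2), a carrier of small amino acids known as a surface marker of brown and beige adipocytes, was at 286.0 to 418.0 CPM in MAT, median 366.1, and at 9.52 to 26.1 CPM in SV, median 14.9, a 21.1-fold difference (4.40 ± 0.20). The 3 Slc36a genes of chromosome 11 lie side by side and did not share a pattern. Slc36a1 (PAT1), 19.3 kb from Slc36a2 and a carrier of lysosomes, was at 17.1 to 29.1 CPM in MAT and 35.9 to 41.5 CPM in SV (-0.61 ± 0.10), and Slc36a3 (PAT3), 6.76 kb away, had 0 to 7 reads per library. Slc36a4 (PAT4), a carrier of tryptophan and proline, and Slc38a9, the carrier that reports lysosomal arginine to mTORC1, were 1.74 and 1.64 times as high in SV. The lysosomal glutamine exporter Slc38a7 (SNAT7) did not pass (0.04 ± 0.074, adjusted p = 0.572). These smaller differences move with scaling: median-of-ratios scaling lifted the median of all genes by 0.36, and under it Slc38a7 was called higher in MAT (0.42) and Slc36a1 was no longer called (-0.23, adjusted p = 0.054). Slc36a1 was also not called by edgeR, DESeq2 or limma after quantile normalization. Slc38a9 was not called by edgeR (-0.24, adjusted p = 0.0559) or by limma after quantile normalization (-0.19, adjusted p = 0.113). Slc36a4 kept its call in all 22 alternatives.

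The 4 Slc6a carriers of amino acids that were tested were all on the SV side. Slc6a9 (GlyT1), a glycine carrier, was at 17.1 to 27.4 CPM in SV, median 20.7, and 1.199 to 2.94 CPM in MAT (-2.98 ± 0.11). Slc6a7 (PROT), a proline carrier, was at 1.72 to 9.12 CPM in SV and had 9 reads in all 6 MAT libraries (-2.27 ± 0.22). Slc6a17 (NTT4), known from synaptic vesicles, was at 3.41 to 9.30 CPM in SV and at or under 3 reads in every MAT library, at least 45.1-fold higher (-2.52 ± 0.19). Slc6a15 (B0AT2) was also at or under 3 reads in every MAT library and at 0.329 to 1.37 CPM in SV, at least 8.85-fold higher. All 4 members tested were called, with no overlap between the fractions, where 59.1% of all genes tested were higher in SV and 74.6% did not overlap. Slc6a7, Slc6a15 and Slc6a17 stayed under 1 CPM in every MAT library and entered the test through SV alone, so the filter itself set their direction. Slc6a9 was above 1 CPM in every library. Slc6a19, the other member of this group, was not tested, and its fractions overlapped.

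The carriers of GABA, taurine, creatine and monoamines divided by gene. Slc6a13 (GAT2), which carries GABA and taurine, was at 26.9 to 75.4 CPM in MAT, median 59.1, and 1.88 to 3.21 CPM in SV, median 2.17 (4.04 ± 0.21, 24.2-fold). Its neighbour Slc6a12 (BGT1), the betaine and GABA carrier 5.34 kb away, was also higher in MAT, at 3.17 to 5.81 CPM against 0.730 to 1.60 CPM (1.51 ± 0.14). The taurine carrier Slc6a6 was the most abundant member of SV by CPM, at 325.2 to 557.7 CPM, median 431.8, and was at 64.5 to 137.8 CPM in MAT (-2.11 ± 0.17). The creatine carrier Slc6a8 was 4.60 times as high in SV (-2.12 ± 0.082). The monoamine carriers were near the floor in MAT: Slc6a4, for serotonin, had 14 reads in 6 MAT libraries and 5.16 to 10.1 CPM in SV (-2.97 ± 0.14), and Slc6a2, for noradrenaline, had 27 reads in MAT and 1.17 to 7.05 CPM in SV (-1.97 ± 0.28). Of the Slc38a genes of less settled role, Slc38a11 (SNAT11) had 7 reads in 6 MAT libraries and 1064 in 6 SV libraries (-2.97 ± 0.11), Slc38a6 (SNAT6) was 1.97 times as high in MAT (0.93 ± 0.085), and Slc38a10 (SNAT10), abundant in both, was 1.24 times as high in MAT (0.31 ± 0.062, adjusted p = 0.000521).

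The 10 members not tested were low in both fractions. The heavy chain Slc3a1 (rBAT) lay at 0.3997 to 1.18 CPM in all libraries. Slc7a11 (xCT), the cystine and glutamate exchanger, was at 0 to 0.544 CPM in MAT and 0.366 to 2.51 CPM in SV. Slc7a3, Slc7a14, Slc6a19, Slc36a3, Slc38a8 and the 3 glutamate carriers named above made up the rest.

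**Figure D3:**
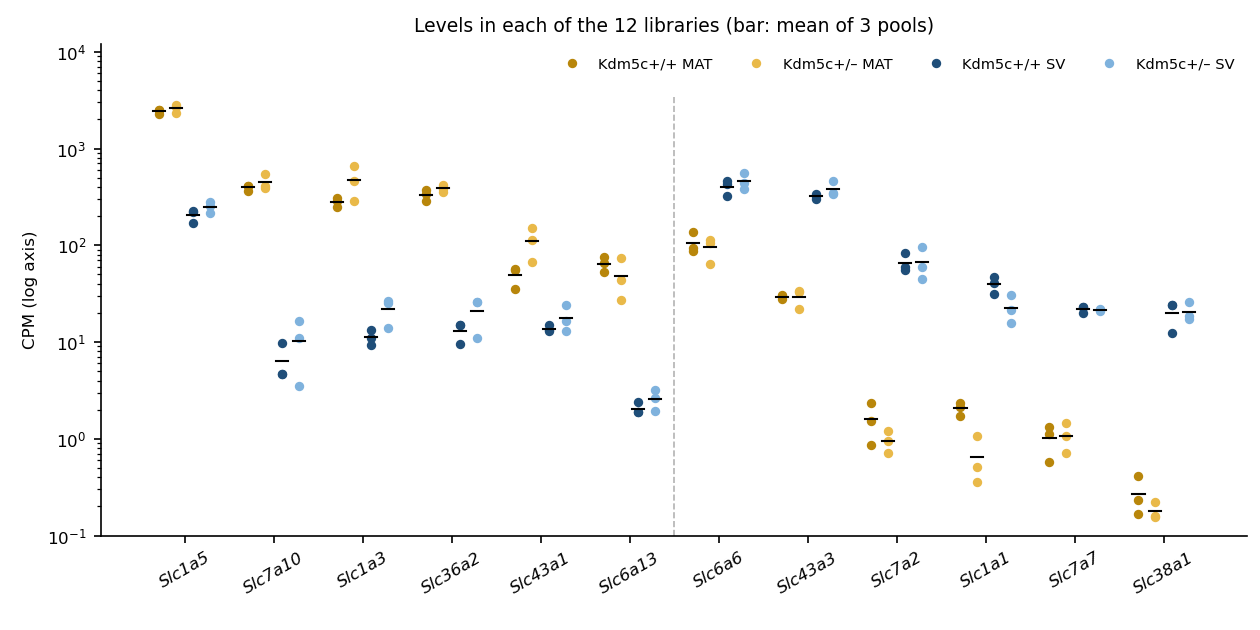
Level of 12 members in each library (CPM, log axis), by genotype and fraction, with a bar at the mean of 3 pools; the 6 genes left of the dashed line were higher in MAT and the 6 on its right were higher in SV. No MAT library overlapped an SV library for any of these 12 genes.

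The 250 bases before a transcription start were taken from RefSeq (GRCm38.p6), where 34 of the 50 members had an entry, to show promoters of carriers that stood on opposite sides. Of the starts listed for a gene, the one nearest to its annotated start with no annotated exon in the 250 bases was used. Each is given 5′ to 3′ on the strand of the gene, in lower case, with capitals at matches, on either strand, to the GC box GGGCGG, the TATA box TATAAA and the C/EBP-ATF element TGATGNAA. The first 3 belong to genes that were higher in MAT, Slc7a10 at chr7:35186135-35186384 (plus strand), Slc1a3 at chr15:8710808-8711057 (minus) and Slc7a6 at chr8:106168604-106168853 (plus). The last 2 belong to genes that were higher in SV, Slc7a7 at chr14:54417945-54418194 (minus) and Slc7a1 at chr5:148399905-148400154 (minus).
Slc7a10: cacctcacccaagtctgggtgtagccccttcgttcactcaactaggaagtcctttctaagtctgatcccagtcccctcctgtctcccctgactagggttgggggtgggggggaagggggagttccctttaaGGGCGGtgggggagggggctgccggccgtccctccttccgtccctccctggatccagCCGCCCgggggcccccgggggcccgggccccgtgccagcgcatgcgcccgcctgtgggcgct
Slc1a3: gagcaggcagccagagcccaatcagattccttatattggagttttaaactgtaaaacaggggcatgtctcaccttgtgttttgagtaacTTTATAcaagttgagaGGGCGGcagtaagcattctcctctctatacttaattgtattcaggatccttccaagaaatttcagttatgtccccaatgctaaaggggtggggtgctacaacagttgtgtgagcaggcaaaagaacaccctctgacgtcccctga
Slc7a6: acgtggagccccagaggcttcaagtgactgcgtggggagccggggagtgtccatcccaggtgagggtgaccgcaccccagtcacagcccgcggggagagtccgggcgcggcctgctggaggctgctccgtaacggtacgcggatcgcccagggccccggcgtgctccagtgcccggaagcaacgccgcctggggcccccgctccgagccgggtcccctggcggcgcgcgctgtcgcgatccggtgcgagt
Slc7a7: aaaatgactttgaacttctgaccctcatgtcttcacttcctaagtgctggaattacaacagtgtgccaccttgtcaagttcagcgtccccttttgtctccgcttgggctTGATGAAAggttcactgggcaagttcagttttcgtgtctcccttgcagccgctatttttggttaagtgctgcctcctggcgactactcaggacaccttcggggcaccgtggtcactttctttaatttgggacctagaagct
Slc7a1: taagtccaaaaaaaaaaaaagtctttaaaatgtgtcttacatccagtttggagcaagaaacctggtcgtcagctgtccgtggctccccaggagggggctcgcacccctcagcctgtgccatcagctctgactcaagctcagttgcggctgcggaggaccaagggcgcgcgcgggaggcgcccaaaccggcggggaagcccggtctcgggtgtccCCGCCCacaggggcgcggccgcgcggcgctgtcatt
Slc7a10 holds 2 GC boxes, Slc1a3 holds 1 with a TATA box, and Slc7a1 holds 1. The windows printed for the y+LAT pair differed: the C/EBP-ATF element was in that of Slc7a7, and none of these 3 motifs was in that of Slc7a6. This holds for the 1 start chosen per gene. With all starts taken, 2 for Slc7a6 and 5 for Slc7a7, both genes held a GC box. Over all starts listed for a gene, a GC box was present in 23 of the 34 members (67.6%) and in 35.4% of the 27025 genes with an entry, in 7 of 9 members higher in MAT and in 11 of 13 higher in SV. The TATA box was in 5 members (14.7%, against 14.3% of all genes) and the C/EBP-ATF element in Slc7a7 and Slc7a11 (5.88%, against 3.91%). The E-box CACGTG was in 6 members (17.6%, against 6.86%), and the nuclear receptor half-site AGGTCA in 5 (14.7%, against 15.8%), with the neighbours Slc6a13 and Slc6a12 among them. The capitals of different motifs do not overlap in these 5 windows, and a match is a run of letters, not a site shown to be bound.

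Carriers that were high in MAT were also found in SV at a few percent, as adipocyte markers were. The SV level was 1.97% of the MAT level for Slc7a10, 4.39% for Slc1a3, 4.74% for Slc36a2, 4.13% for Slc6a13 and 9.05% for Slc1a5, and over the 8 adipocyte markers it ran from 2.05 to 41.7% (Fabp4), median 2.68%, with Adipoq, the adiponectin gene, at 2.30%. Relative to Adipoq in the same library, Slc7a10 was at 8.51 to 12.04% in MAT and 6.26 to 10.2% in SV, ranges that overlap. Slc36a2 was at 6.65 to 9.08% of Adipoq in MAT and 14.4 to 25.0% in SV, and Slc1a5 at 51.6 to 64.5% in MAT and 154.2 to 390.1% in SV, without overlap. Slc1a3 overlapped, at 6.03 to 14.6% of Adipoq in MAT and 12.7 to 24.8% in SV. These ratios hold for Adipoq as the reference and depend on the marker chosen. The SV level was 2.32% of the MAT level for Plin1, 2.86% for Cidec, 2.05% for Lep and 2.49% for Retn, near that of Adipoq. It was higher for Lipe (8.04%) and Pparg (34.4%), as for Fabp4, and 8.04% is near the 9.05% of Slc1a5. In the other direction, the MAT level of the carriers of SV was 1.10% (Slc38a1), 1.92% (Slc7a2), 4.36% (Slc1a1) and 8.37% (Slc43a3) of the SV level, beside medians over the endothelial and the progenitor markers of 3.02% and 1.197%. How far RNA of the other fraction's cells makes up these low levels was not tested.

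**Figure D4:**
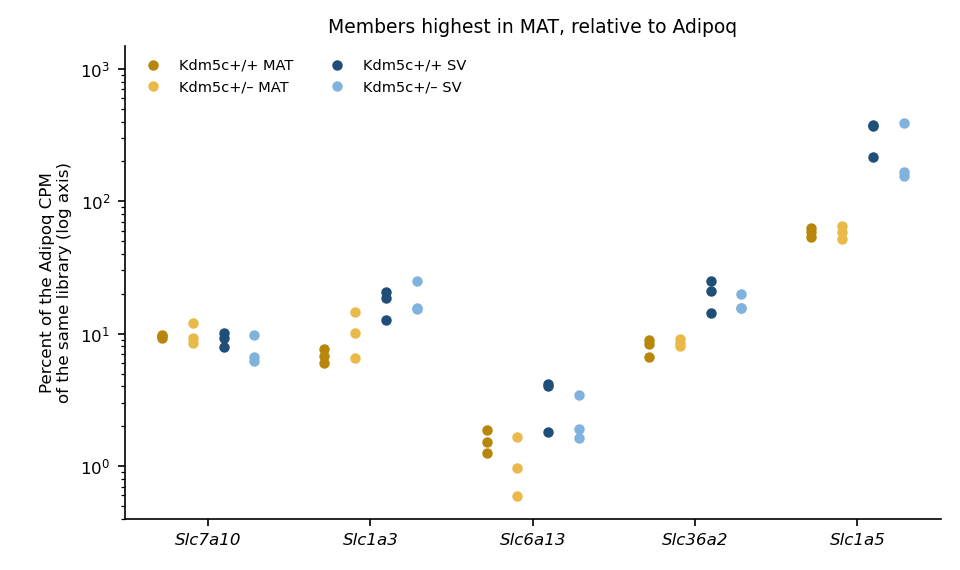
Level of 5 carriers that were higher in MAT, as a percent of the Adipoq level of the same library (log axis), by genotype and fraction. The MAT and SV libraries overlap for Slc7a10, Slc1a3 and Slc6a13, and lie apart for Slc36a2 and Slc1a5.

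With limma and edgeR no member was called between the genotypes in MAT at an adjusted p of 0.05. Of 29 members tested with limma 0 were called, as were 0 of all 11913 genes (0%); edgeR also called 0. At an unadjusted p under 0.05, 1 member was higher and 5 were lower in Kdm5c+/-, 20.7% of the members against a background of 14.6% (5.57% higher and 9.01% lower), and the 3 pools of each genotype did not overlap for 7 members (24.1%, background 22%). Slc36a4, a carrier of tryptophan and proline, was at 10.5, 10.9 and 11.5 CPM in Kdm5c+/- and 14.9, 15.5 and 15.7 CPM in Kdm5c+/+, with no overlap (-0.45 ± 0.087, 95% interval -0.66 to -0.25, adjusted p = 0.273). The glutamate carrier Slc1a1 was at 0.514, 0.360 and 1.06 CPM, or 50 reads, against 2.15, 2.34 and 1.74 CPM, or 166 reads (-0.92 ± 0.20, adjusted p = 0.273). The facilitative carrier Slc43a1 was at 113.3, 149.7 and 67.2 CPM against 56.4, 55.9 and 35.5 CPM, every Kdm5c+/- pool above every Kdm5c+/+ pool (1.10 ± 0.31, interval 0.35 to 1.85, adjusted p = 0.286). DESeq2, run on whole reads recovered from the CPM, called these 3, Slc43a1 higher (adjusted p = 0.0161) and Slc36a4 (0.0339) and Slc1a1 (0.0282) lower, beside 2.1% of all genes.

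The other members with the smallest p in MAT were not called by any of these tools. Slc7a1 (-0.65 ± 0.20), Slc38a3 (-1.12 ± 0.36) and the heavy chain Slc3a2 (-0.44 ± 0.15) were below 0, with adjusted p of 0.29 to 0.3. Slc3a2 was at 169.3, 129.5 and 172.7 CPM in Kdm5c+/- and 247.7, 206.1 and 187.8 CPM in Kdm5c+/+, with no overlap. On the other side stood Slc38a7 (0.27 ± 0.11), Slc1a3 (0.67 ± 0.28), Slc6a9 (0.35 ± 0.20) and Slc36a2. Slc1a3 was at 465.7, 660.1 and 288.9 CPM in Kdm5c+/- and 251.4, 289.4 and 304.3 CPM in Kdm5c+/+, and the groups overlapped. For Slc7a10 the genotypes differed by 0.17, with Kdm5c+/- pools at 391.6, 543.6 and 411.1 CPM and Kdm5c+/+ pools at 408.2, 411.7 and 367.9 CPM, which overlap. Markers of other cells were not level across these libraries: the endothelial sum was 95.6 to 172.3 CPM in Kdm5c+/- MAT and 218.1 to 273.7 CPM in Kdm5c+/+ MAT, that of pericytes and smooth muscle (5 genes) was 47.3 to 189.7 against 168.3 to 414.0 CPM, and the adipocyte sum was 30603 to 30882 against 24553 to 27147 CPM. Acta2 was the largest part of the pericyte and smooth muscle sum, at 28.2, 21.8 and 131.3 against 99.2, 311.0 and 160.8 CPM. Fabp4 was the largest part of the adipocyte sum, at 13432.8, 12511.5 and 12271 against 9434.7, 9888.9 and 10067.5 CPM. Lep, also in the adipocyte sum, overlapped, at 1196, 738.3 and 2194 against 1382, 2628 and 2651 CPM. The sum of progenitor and fibroblast markers (8 genes) was 385.0, 336.6 and 1240 CPM in the Kdm5c+/- MAT pools and 820.3, 1245 and 1118 CPM in the Kdm5c+/+ MAT pools. In this sum the third Kdm5c+/- pool lay among the Kdm5c+/+ pools. Most of the sum was Col1a1, at 309.0, 262.0 and 1161 against 720.6, 1083 and 1028 CPM. Dcn and Fbn1 of the same list kept the third pool near its own group. Dcn was at 31.6, 31.2 and 34.3 against 40.0, 79.9 and 38.2 CPM, and Fbn1 at 14.7, 16.8 and 15.9 against 19.1, 24.5 and 18.2 CPM. The third Kdm5c+/- pool was also the highest of its group in Slc1a1 and in Slc38a3, which was at 3.19, 3.04 and 9.25 CPM in Kdm5c+/-, and the lowest in Slc43a1. The part of these markers in the differences of Slc1a1, Slc7a1, Slc38a3 and Slc43a1 was not tested.

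With limma and edgeR no member was called between the genotypes in SV either, at an adjusted p of 0.05. Of 39 tested 0 were called with limma, against 1 of 13792 genes (0.00725%). At an unadjusted p under 0.05, 3 were higher and 4 lower in Kdm5c+/- (17.9%, background 7.56%, with 2.07% higher and 5.5% lower), and 6 did not overlap between genotypes (15.4%, background 13.5%). The glycine carrier Slc6a9 was at 18.5, 17.1 and 20.0 CPM in Kdm5c+/- and 21.5, 27.4 and 27.1 CPM in Kdm5c+/+ (-0.43 ± 0.12, adjusted p = 0.617). Slc1a1 was at 15.6, 21.3 and 30.9 CPM against 41.0, 46.6 and 31.7 CPM, all Kdm5c+/- pools lower (-0.82 ± 0.25, adjusted p = 0.617). Slc1a3 was at 25.2, 26.5 and 13.8 CPM against 13.2, 9.34 and 11.1 CPM, all Kdm5c+/- pools higher (0.86 ± 0.25, adjusted p = 0.617; DESeq2 adjusted p = 0.0488, which called 0.384% of all genes). The same libraries had 164.6, 168.5 and 55.8 CPM of Adipoq in Kdm5c+/- and 104.6, 45.4 and 59.5 CPM in Kdm5c+/+, and the part of this in Slc1a3 was not tested. The sum of pericyte and smooth muscle markers was 2921, 2880.4 and 3229 CPM in Kdm5c+/- SV and 3134, 3976 and 4033 CPM in Kdm5c+/+ SV. That of endothelial markers was 6499, 5007 and 5619 CPM against 6824, 7000.0 and 6382 CPM. Both were lower on average in Kdm5c+/-, as Slc6a9 and Slc1a1 were, and their part in these differences was not tested. Slc38a3 (-0.75 ± 0.22), Slc38a4 (0.86 ± 0.32), Slc7a6 (0.22 ± 0.088) and Slc6a7 (-0.98 ± 0.40) had adjusted p of 0.617 to 0.644.

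**Figure D5:**
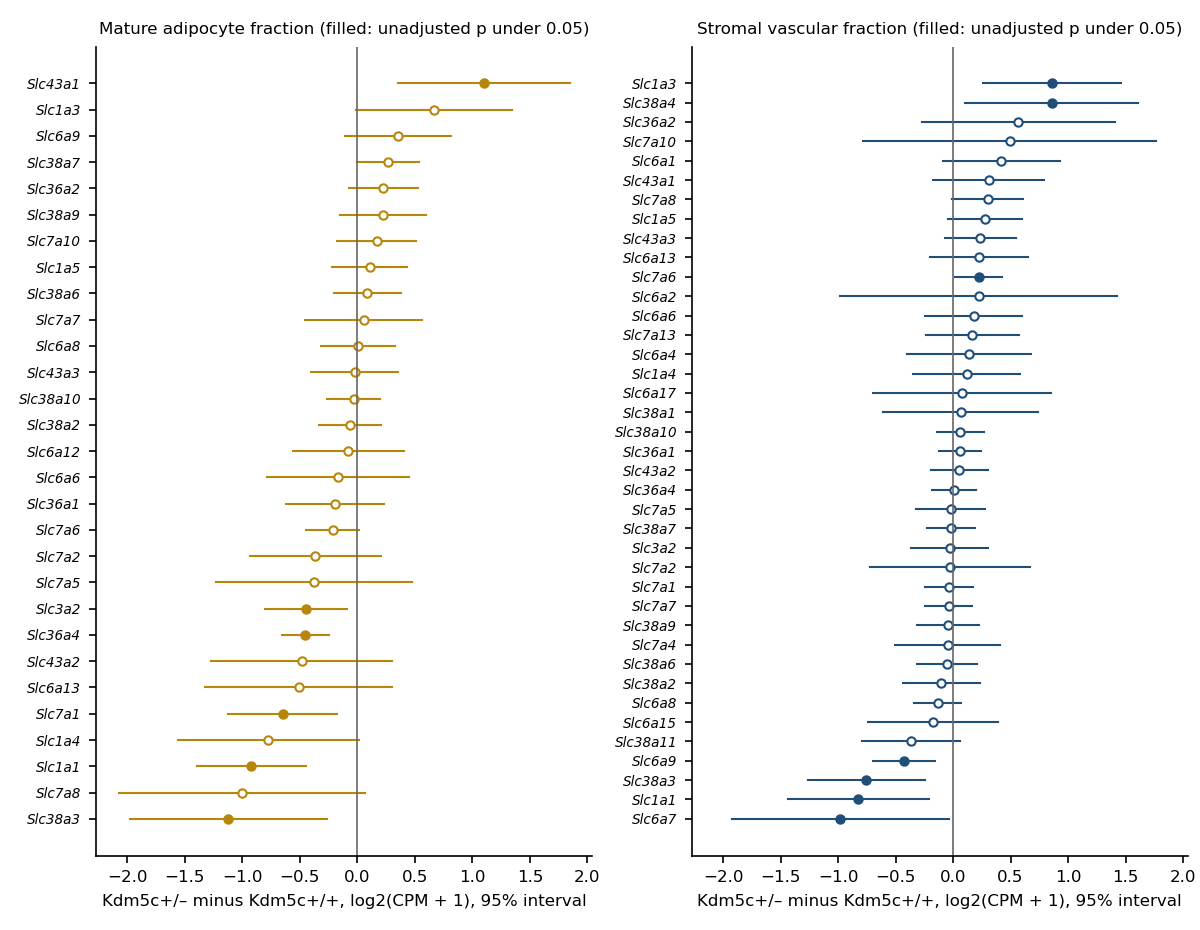
Difference between the genotypes (Kdm5c+/- minus Kdm5c+/+, log2(CPM + 1), limma, with its 95% interval) for the 29 members tested in MAT and the 39 tested in SV; filled circles had an unadjusted p under 0.05. No member passed after adjustment in either fraction, and several intervals span more than 1 on the log2 scale.

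The difference between the genotype differences of the fractions was tested with all 12 libraries. Of 40 members 0 were called with limma or edgeR (0% of 14193 genes), and 5 had an unadjusted p under 0.05 (12.5%, background 8.93%). Slc36a4 was the lowest in p. Its genotype difference in MAT was -0.45 and its SV pools were at 22.6, 22.1 and 24.2 CPM in Kdm5c+/- and 22.4, 22.1 and 24.0 CPM in Kdm5c+/+, which overlap, so that the differences differed by -0.46 ± 0.11 (adjusted p = 0.445 with limma and 0.0451 with DESeq2, which called 0.458% of all genes). Slc6a9 (0.78 ± 0.23) and Slc7a6 (-0.44 ± 0.13) followed, both with an adjusted p of 0.504.

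Genes around the carriers were examined as 4 lists, in the same fits. The lists were chosen with earlier results of these data known, so their shares describe the lists and are not independent tests. They are also not separate, since Asns is among both the enzymes and the ATF4 targets. Of amino acid enzymes, 19 of 34 tested (55.9%) were higher in MAT and 12 (35.3%) higher in SV with limma, against 28.7% and 59.1% of all genes (median 0.65, against -0.45 over all genes). With edgeR they were 21 and 10 (61.8% and 29.4%), against 42.7% and 43.3% of all genes. Cth, which makes cysteine from cystathionine, was at 15.6 ± 1.26 CPM in MAT and 0.417 ± 0.131 CPM in SV (SD, n = 6; 3.55 ± 0.083 SE), and Csad, an enzyme of taurine synthesis (3.04), Bcat2, the mitochondrial branched-chain aminotransferase (2.7), and Asns, asparagine synthetase (2.39), were also higher in MAT. Of known targets of ATF4, the transcription factor of amino acid shortage, 16 of 28 (57.1%) were higher in MAT and 8 (28.6%) higher in SV with limma, and 19 (67.9%) and 8 with edgeR, beside the same shares of all genes, with Phgdh (3.81) and Psat1 (3.18) of serine synthesis and Eif4ebp1 (2.98), an inhibitor of translation, among those with the smallest p. Of genes of amino acid sensing through mTORC1, 13 of 32 (40.6%) were higher in MAT and 15 (46.9%) higher in SV with limma. That split moved with the scaling, to 20 and 8 after median-of-ratios scaling and 21 and 5 with edgeR. Of the other amino acid and peptide carriers 7 of 15 (46.7%) were higher in each fraction with limma, and 8 and 6 with edgeR: Slc16a10, the aromatic amino acid carrier, was higher in MAT (3.15), and the mitochondrial aspartate and glutamate carrier Slc25a12 (-4.20) and the peptide carriers Slc15a2 (-3.10) and Slc15a3 (-3.26) were higher in SV. None of the genes tested in the 4 lists was called between genotypes with limma in either fraction. In MAT, Eif4ebp1 was at 365.5 ± 29.0 CPM in Kdm5c+/- and 250.2 ± 24.5 CPM in Kdm5c+/+ (SD, n = 3; 0.55 ± 0.11 SE, limma adjusted p = 0.273, DESeq2 adjusted p = 0.00238), and Glul, glutamine synthetase, differed by 0.49 ± 0.18 (adjusted p = 0.316). In SV, Bcat1, the cytosolic branched-chain aminotransferase, was at 7.87 ± 0.942 against 3.35 ± 1.14 CPM (SD, n = 3; 1.05 ± 0.20 SE, limma adjusted p = 0.617, DESeq2 adjusted p = 0.0115).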

How the data were processed

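RNA was measured in 12 libraries, and samples were grouped by the genotype and fraction in their labels. Reads were processed with STAR 2.7.2a and edgeR 3.26.8 on GRCm38, as the submitters' processing notes list; how genes were counted, and whether by strand, no source used here says, although per the labels' protocols the libraries kept strand. The deposited values are CPM per gene, which the authors scaled so that each library sums to 1000000, and every gene listed was at 0.1 CPM or more in at least 3 libraries. All values were whole multiples of 1 read within 0.05, which gave back the read counts, 21836878 to 29434125 per library; 23 gene symbols had been turned into dates and are not named.

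Differences of log2(CPM + 1) were tested in R 4.3.3 with limma 3.58.1 (eBayes, trend and robust set), two-sided, for genes that reached 1 CPM in 3 or more of the fitted libraries, with Benjamini-Hochberg adjustment over all genes tested and a threshold of 0.05. Log2 differences on this scale understate the change of low genes. The fraction and the difference of differences used all 12 libraries with 1 mean per group, and each genotype comparison used its own 6. edgeR 4.0.16 and DESeq2 1.42.0 were run on the recovered reads as alternatives, beside another pseudocount, filters, scalings and left-out libraries. Replicates are pools of 2 mice, so p-values measure the spread between pools. Replicate numbers linked the fractions of 1 pool: deviations from group means, across genes, correlated at 0.169 to 0.278 for the same number in all 6 pairs and were below 0 otherwise. The deviations of a group sum to 0 over its 3 pools. Values below 0 for unlike numbers therefore follow largely from those above 0 and add no separate evidence. Replicates of a group differed by more than sampling noise (chi-square per degree of freedom of 22.8 or more).

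Gene positions and transcript lengths came from GENCODE M21, and promoters from RefSeq. The members and gene lists were chosen with earlier results of these data known. Genes given in full were Slc7a10, up to 12 members per direction with the largest called fraction difference, called members or else the 5 with the smallest p per direction between genotypes and the 3 with the smallest p for the difference of differences, and from each list the 4 (fraction) or 2 (genotype) with the smallest p. Members outside these are named for their role or level, after their values were seen. Tests were tried on simulated data first. Figures were drawn with matplotlib 3.10.9 in Python 3.11.15 and tables read with pandas 2.3.3.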

Additional observations from a re-analysis of the deposited data

How the results depend on the processing

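With 3 pools per group the smaller differences are limited by the spread between pools, and levels near 3 reads by depth. Of the 37 members called between the fractions, 31 were called in the same direction in every alternative that tested them, and 36 kept their direction. Other scalings lifted the median of all genes by 0.36 (median-of-ratios and DESeq2), 0.44 (edgeR) and 0.53 (quantile normalization), and the 12 members higher in MAT and 25 higher in SV became 14 and 23, 15 and 22, 15 and 21, and 14 and 22, respectively. A filter on a mean of 5 CPM left 16 called higher in SV, with 30 members tested. Slc3a2 turned to the MAT side with median-of-ratios scaling (0.28), quantile normalization (0.087), edgeR (0.37), DESeq2 (0.29) and in wild-type libraries only (0.10), and Slc7a4 with quantile normalization (0.63). Slc38a7 was -0.10 in wild-type libraries only. Slc7a8, 0.12 in the main analysis and not called, was called higher in MAT with edgeR (0.70), DESeq2 (0.62) and in wild-type libraries only (0.77), and was -0.54 in the Kdm5c+/- libraries only and, leaving out 1 library at a time, -0.13 (without the third Kdm5c+/- MAT pool) to 0.25, with -0.01 without the second Kdm5c+/+ MAT pool. Leaving out 1 library at a time gave 11 to 12 members higher in MAT and 25 higher in SV, and 0 members in either direction in both genotype comparisons and in the difference of differences; there, Slc7a10 ran from -0.89 without the third to 0.10 without the second Kdm5c+/- SV pool, around -0.32 with all. The cause of these changes was not tested.

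DESeq2 called 1 member higher and 2 lower between genotypes in MAT, 1 higher in SV, and 1 lower in the difference of differences, where limma and edgeR called 0. With the replicate number as a block, 12 members were higher in MAT and 25 higher in SV, and 0 were called between genotypes or in the difference of differences; the block changed no call of a member. Between genotypes within a fraction the same numbers correlated at -0.026 to 0.341 in MAT and -0.281 to 0.184 in SV, so these pools share only a number. Of the 5 members highest per kb in each fraction, levels by the median transcript length differed from those by the longest for Slc7a10, Slc1a3 and Slc3a2 in MAT and for Slc43a3, Slc3a2 and Slc6a6 in SV. Over all 50 members the lengths differed by more than 1.5 times for 22.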
